A study of Mus musculus with 16 samples.

Results

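The genes described here are 10 markers of the osteoclast, the multinucleated cell that resorbs bone: Tnfrsf11a, Oscar, Nfatc1, Dcstamp, Ocstamp, Atp6v0d2, Acp5, Ctsk, Mmp9 and Calcr. They were chosen by gene symbol, with earlier results of these data known, and are 10 of the 45796 genes in the count table. All 10 had enough reads to be tested, among 16430 genes tested. Bulk RNA sequencing had been done on cultured mouse bone marrow stromal cells (BMSCs), the adherent marrow cells that lay down mineralized matrix, after 21 days in medium holding ascorbic acid at 50 µg/ml and beta-glycerophosphate at 10 mM. There were 4 libraries for each of 4 genotypes, with a total of 61873069 to 79461044 counts per library. In every group both Fgf23 alleles were floxed. Dmp1KO/Fgf23cKO cells were Dmp1-/- Fgf23 fl/fl Dmp1-cre+, Dmp1KO cells were Dmp1-/- Fgf23 fl/fl without Cre, Fgf23cKO cells were Dmp1+/+ Fgf23 fl/fl Dmp1-cre+, and WT cells were Dmp1+/+ Fgf23 fl/fl without Cre. The Cre was driven by the Dmp1 promoter, which is active in mature osteoblasts and osteocytes, and the presence of Cre cannot be told apart from the deletion of Fgf23. Marrow came from mice aged 12 weeks. A figure legend of the study gives 3 mice per genotype for this sequencing, against 4 libraries, so libraries may share an animal, and p-values measure only the spread between these libraries, which may be technical. The comparisons ask which changes follow the loss of the matrix protein DMP1 and which need FGF23, the phosphate-regulating hormone made in excess when Dmp1 is lost.

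Osteoclasts form when precursors of the monocyte and macrophage lineage fuse. The cytokine M-CSF keeps the precursors alive, and RANKL, made by stromal cells, osteoblasts and osteocytes, binds the receptor RANK on them and induces the transcription factor NFATc1, which in turn switches on genes of fusion, acid secretion and matrix breakdown. Marrow cultures selected by adherence usually keep macrophages, so both precursors and the cells that signal to them can be present in one dish. Several of the 10 genes are also expressed in macrophages or other cells, so their levels are not a count of osteoclasts. In bulk RNA, fewer cells of a type and less RNA per cell cannot be told apart.

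Levels are given as CPM, the counts of a gene scaled to a common library total with TMM factors (counts-per-million). Dmp1 lay between 41.2 and 109 CPM in the 8 Dmp1-/- libraries, against 329 to 1396 CPM in the 8 Dmp1+/+ libraries, and Fgf23 was at most 0.0996 CPM in the 8 Cre-positive libraries, against 0.633 to 6.19 CPM in the 8 without Cre, so each gene was lower in every library labelled as lacking it. The osteoblast list of 14 genes summed to between 51490 and 205100 CPM per library, the macrophage list of 18 genes to between 7270 and 14430 CPM, and the 10 osteoclast markers to between 384 and 1069 CPM. Neutrophil genes summed to at most 1.40 CPM for the 3 of 8 that could be tested, and endothelial genes to at most 5.81 CPM for 4 of 6. The Dmp1KO/Fgf23cKO libraries were divided: libraries 1 and 2 had osteoblast sums of 61470 and 55030 CPM, and libraries 3 and 4 had 205100 and 150500 CPM. Type I collagen weighs heavily in these sums. Col1a1 alone gave 31940 and 25570 CPM in libraries 1 and 2, and 125600 and 90710 CPM in libraries 3 and 4. Spp1 ran the other way, at 5160 and 9121 CPM against 3535 and 4076 CPM. The comparisons are therefore also given without each of these pairs, where a value moved with them.

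By role, the first members are receptors and the regulator they act on. Tnfrsf11a (Entrez 21934, chr1:105780673-105849444 of GRCm38.p6, the mm10 assembly, plus strand) encodes RANK. Oscar (Entrez 232790, chr7:3609813-3616157, minus strand) encodes a collagen-binding receptor that costimulates osteoclast formation through an adaptor of the Fc receptor. Nfatc1 (Entrez 18018, chr18:80606205-80713071, minus strand) encodes the transcription factor named above, and an antisense gene overlaps it. The next 3 act in cell fusion: Dcstamp (Entrez 75766, chr15:39745930-39760938, plus strand) and Ocstamp (Entrez 74614, chr2:165395450-165400394, minus strand) encode related membrane proteins that precursors need to fuse, and Atp6v0d2 (Entrez 242341, chr4:19876838-19922566, minus strand) encodes a subunit of the proton-pumping V-ATPase that is needed for efficient fusion in mice and is also made by macrophages. Acp5 (Entrez 11433, chr9:22126727-22135746, minus strand), Ctsk (Entrez 13038, chr3:95499210-95509387, plus strand) and Mmp9 (Entrez 17395, chr2:164940326-164955850, plus strand) encode the resorption enzymes tartrate-resistant acid phosphatase, cathepsin K and a gelatinase. Calcr (Entrez 12311, chr6:3685678-3764713, minus strand) encodes the calcitonin receptor of mature osteoclasts. These are spans of whole genes. Acp5 overlaps a noncoding gene on the other strand and Calcr hosts a pair of microRNA genes, and whether the counting used strand is not given in the sources used here, so reads of such overlaps could not be told apart.

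The markers spanned a wide range of levels in WT cultures. Per kilobase of exon, so that genes of different length can be set side by side, Ctsk stood highest at 121.8 ± 34.5 CPM per kb (SD, n = 4), above 98.6% of the 14994 tested genes with a known exon length. Acp5 (36.4 ± 24.7 CPM per kb) and Mmp9 (27.9 ± 22.9) followed, then Tnfrsf11a (18.2 ± 1.29), Nfatc1 (14.6 ± 0.353) and Atp6v0d2 (14.0 ± 3.67). The remaining members were much lower: Oscar at 1.23 ± 0.986, Dcstamp at 0.900 ± 0.686, Ocstamp at 0.408 ± 0.193 and Calcr at 0.221 ± 0.233 CPM per kb, Calcr standing above 14.0% of tested genes. Of the 9 gaps between neighbours in this order, those below Ctsk, below Tnfrsf11a and below Atp6v0d2 were larger than the larger SD of the pair, and the other neighbours did not differ beyond their spread. In Dmp1KO cultures Ctsk was still first, at 97.8 ± 12.5 CPM per kb, with Atp6v0d2 second at 34.2 ± 33.8, while Acp5 was at 9.42 ± 4.93 and Mmp9 at 2.59 ± 2.65 CPM per kb. These orders are descriptions within a genotype.

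RefSeq promoter windows (GRCm38.p6, 250 bases before to 50 after a start site) were at hand for 5 of the 10 genes, in 8 windows. Those of Acp5, Oscar and Ctsk are shown because Acp5 and Oscar had the most similar profiles among the members that varied widely, while Ctsk, an enzyme of the same resorption step, varied little. Capitals mark matches, on either strand, of the NFAT core GGAAA, the AP-1 site TGANTCA, the MITF box TCANGTG and the PU.1 core GAGGAA, factors known for their part in osteoclast formation. The Acp5 window, the one of 3 for that gene with the most matches, lies at chr9:22130549-22130848, minus strand, the Oscar window at chr7:3616108-3616407, minus strand, and the Ctsk window at chr3:95498960-95499259, plus strand. All read 5′ to 3′ along the gene's own strand.
Acp5: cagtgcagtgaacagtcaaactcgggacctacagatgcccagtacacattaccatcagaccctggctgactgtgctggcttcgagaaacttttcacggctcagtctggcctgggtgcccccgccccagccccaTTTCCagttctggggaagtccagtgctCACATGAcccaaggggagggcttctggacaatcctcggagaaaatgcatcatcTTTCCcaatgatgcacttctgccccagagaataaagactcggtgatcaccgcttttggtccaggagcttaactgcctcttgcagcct
Oscar: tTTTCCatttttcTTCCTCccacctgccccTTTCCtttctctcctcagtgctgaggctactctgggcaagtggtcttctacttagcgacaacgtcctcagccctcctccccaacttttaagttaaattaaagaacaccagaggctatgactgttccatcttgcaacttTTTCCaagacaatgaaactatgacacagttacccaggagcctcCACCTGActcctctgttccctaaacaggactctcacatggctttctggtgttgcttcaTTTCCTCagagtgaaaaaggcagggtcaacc
Ctsk: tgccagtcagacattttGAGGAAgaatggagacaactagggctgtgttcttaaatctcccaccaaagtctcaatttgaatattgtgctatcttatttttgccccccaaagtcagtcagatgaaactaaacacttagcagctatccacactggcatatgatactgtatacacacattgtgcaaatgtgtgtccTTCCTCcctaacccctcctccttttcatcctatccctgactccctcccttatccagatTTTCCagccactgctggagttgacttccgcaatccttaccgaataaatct
The Acp5 window held 2 matches of the NFAT core and 1 of the MITF box. The Oscar window held 4 of the NFAT core, 1 of the MITF box and 2 of the PU.1 core, with 1 stretch near its end where an NFAT core and a PU.1 core overlap. In the Ctsk window there were 1 NFAT core and 2 PU.1 cores. No AP-1 site was matched in any of the 8 windows, and the Tnfrsf11a window and 1 of the Calcr windows held no match of any kind. Over all 32851 windows of the table, 61.3% held the NFAT core, 7.81% the AP-1 site, 14.3% the MITF box and 28.3% the PU.1 core. These are matches of letters only.

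Variation between libraries of one genotype was large for most members, and it was shared. In Dmp1KO/Fgf23cKO, libraries 1 and 2 both stood above libraries 3 and 4 for 8 of the 10 genes, and Atp6v0d2 had the opposite order. In Dmp1KO, library 4 was the highest of its group for 6 members, and in Fgf23cKO, library 1 for 8 members. In WT, libraries 1 and 3 both stood above libraries 2 and 4 for 8 members, all but Nfatc1 and Tnfrsf11a. Dmp1KO/Fgf23cKO library 1 was the highest of all 16 libraries for 7 of the 10 genes. How many of all tested genes had these orders was not counted, so the orders are not shown to be particular to the markers. Mmp9 varied the most, between 0.566 CPM in Dmp1KO/Fgf23cKO library 3 and 262.8 CPM in Dmp1KO/Fgf23cKO library 1, while Ctsk varied 2.41-fold over the 16 libraries. Macrophage sums were 10580, 11770, 11780 and 11350 CPM in WT libraries 1 to 4. Lyz2 alone gave 4787, 5815, 5223 and 5052 CPM of them. The part of macrophages in the order of the WT libraries was not tested.

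**Figure D1:**
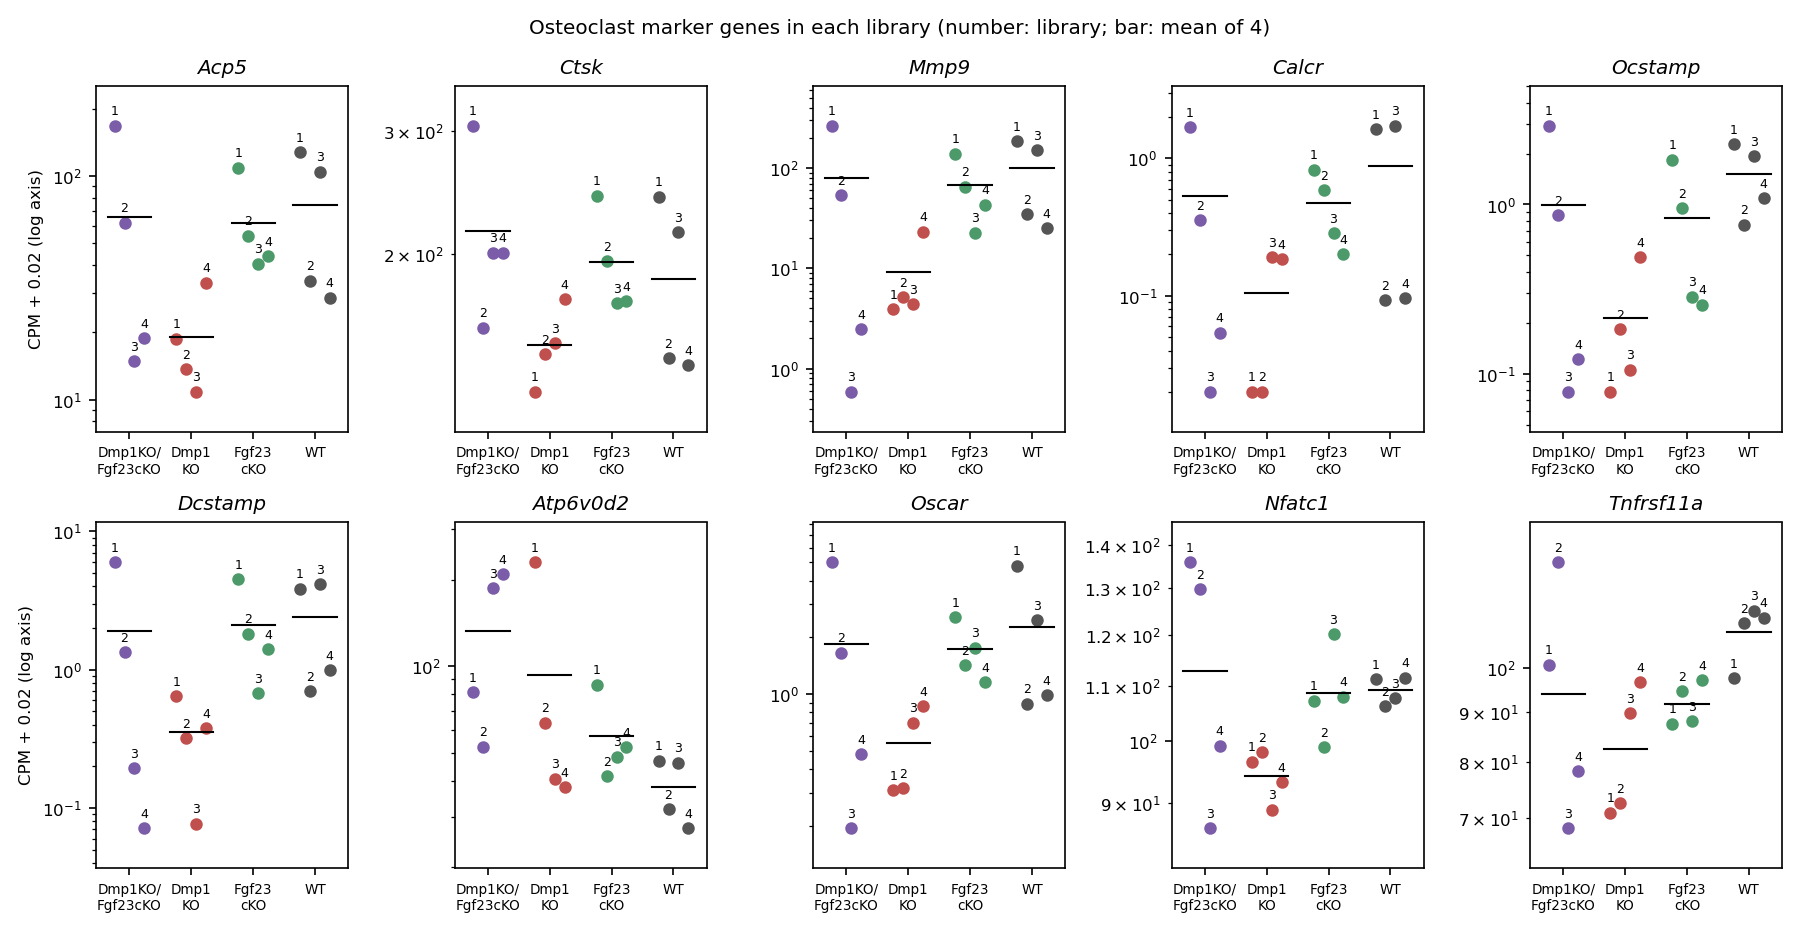
CPM of each of the 10 osteoclast marker genes (log axis, with 0.02 added so that libraries at 0 can be drawn) in the 4 libraries of Dmp1KO/Fgf23cKO, Dmp1KO, Fgf23cKO and WT cultures. Each numbered point is a library and each bar the mean of 4. Mmp9 lies between 3.90 and 23.2 CPM in Dmp1KO and between 25.2 and 185.4 CPM in WT, and the Dmp1KO/Fgf23cKO points fall into a high and a low pair for most genes, with Atp6v0d2 in the opposite order.

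Loss of Dmp1 was examined first, in Dmp1KO against WT cultures. 9 of the 10 osteoclast markers had lower fitted levels in Dmp1KO and Atp6v0d2 a higher one, but with all 16 libraries in the fit only Ocstamp passed the test (edgeR quasi-likelihood, Benjamini-Hochberg adjusted p under 0.05, called lower). That is 1 of 10 members, against 33.8% of all tested genes called in this comparison, 18% higher and 15.8% lower. The median log2 fold change of the members was -2.02, beside -0.016 over all genes tested. An unadjusted p under 0.05 was found for 8 of the 10, and for 7459 of the 16430 genes tested. For 6 members, Mmp9, Ocstamp, Dcstamp, Oscar, Nfatc1 and Tnfrsf11a, every Dmp1KO library lay below every WT library, as was so for 19.1% of all tested genes.

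Of the fusion genes, Ocstamp was at 0.0580, 0.163, 0.0857 and 0.468 CPM in Dmp1KO libraries 1 to 4, against 2.24, 0.737, 1.91 and 1.07 CPM in WT. All Dmp1KO libraries were lower than all WT libraries, with Dmp1KO library 4 nearest to them. Ocstamp fell by 2.93 ± 1.06 on the log2 scale (SE), that is 7.61-fold, with an adjusted p of 0.0459 by edgeR. Without Dmp1KO library 4 the log2 fold change was -3.84 ± 1.24 (adjusted p 0.0367). Its reads were few, 4, 12, 6 and 34 counts in Dmp1KO against 170, 61, 162 and 84 in WT. Dcstamp was at 0.624, 0.298, 0.0571 and 0.358 CPM in Dmp1KO, against 3.82, 0.677, 4.12 and 0.968 CPM in WT. These groups did not overlap, although Dmp1KO library 1 came within a narrow margin of WT library 2, and the log2 fold change of -2.84 ± 1.14 missed the threshold (edgeR adjusted p 0.0672). Atp6v0d2 ran the other way, with 229.7, 63.7, 40.7 and 37.96 CPM in Dmp1KO and 46.9, 31.9, 46.2 and 27.3 CPM in WT. Only Dmp1KO libraries 1 and 2 were above all WT libraries, library 1 stood far above the rest, and the log2 fold change was 1.29 ± 0.56 (edgeR adjusted p 0.0868). Without Dmp1KO library 1 it was 0.32 ± 0.43 (adjusted p 0.581).

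Among the resorption enzymes, Mmp9 was at 3.90, 5.16, 4.39 and 23.2 CPM in Dmp1KO libraries, against 185.4, 34.7, 150.1 and 25.2 CPM in WT. The groups did not overlap, but Dmp1KO library 4 lay just under WT library 4, and the log2 fold change was -3.43 ± 1.36 (edgeR adjusted p 0.0648). Without Dmp1KO library 4 it was -4.46 ± 1.60 (adjusted p 0.0551). Acp5 was at 18.7, 13.7, 10.8 and 33.3 CPM in Dmp1KO, against 128.2, 34.02, 104.8 and 28.6 CPM in WT. Here Dmp1KO library 4 was above WT library 4, so the groups overlapped, with a log2 fold change of -1.95 ± 0.73 (edgeR adjusted p 0.0512). Ctsk was at 126.7, 143.6, 148.9 and 172.3 CPM in Dmp1KO and at 241.6, 141.6, 215.0 and 138.3 CPM in WT. Dmp1KO libraries 2, 3 and 4 were all above WT libraries 2 and 4, so the groups overlapped, and the log2 fold change was -0.32 ± 0.21 (edgeR adjusted p 0.258).

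Calcr, the marker of the mature cell, was barely detected. It had 0, 0, 12 and 12 counts in Dmp1KO libraries, against 122, 6, 144 and 6 counts in WT, or 0, 0, 0.171 and 0.165 CPM against 1.61, 0.0725, 1.70 and 0.0764 CPM. A count of 0 allows up to 3 counts, 0.0435 CPM in Dmp1KO library 1 and 0.0406 CPM in Dmp1KO library 2, for counting error only. WT libraries 2 and 4 lay below Dmp1KO libraries 3 and 4, so the groups overlapped, and WT libraries 1 and 3 stood far above the other libraries of both groups. The fitted log2 fold change was -3.33 ± 1.48 (edgeR adjusted p 0.0927).

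Of the receptors and their regulator, Tnfrsf11a and Nfatc1 spanned a narrow range and Oscar a wide one. Tnfrsf11a was at 70.9, 72.5, 89.8 and 96.6 CPM in Dmp1KO, against 97.6, 111.2, 114.5 and 112.6 CPM in WT. The groups did not overlap, and the log2 fold change was -0.40 ± 0.16 (edgeR adjusted p 0.0571). Nfatc1 was at 96.6, 98.2, 88.9 and 93.2 CPM in Dmp1KO and at 111.2, 106.2, 107.6 and 111.5 CPM in WT. Its libraries were close together in both groups and did not overlap, with a log2 fold change of -0.21 ± 0.11 (edgeR adjusted p 0.159). Oscar was at 0.290, 0.298, 0.686 and 0.840 CPM in Dmp1KO, against 4.77, 0.870, 2.44 and 0.968 CPM in WT. Dmp1KO libraries 3 and 4 came close to WT libraries 2 and 4, and the log2 fold change was -2.09 ± 0.83 (edgeR adjusted p 0.0634).

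The number of these differences called depended on the libraries in the fit and on the method. With only the Dmp1KO and WT libraries, 7 members were called lower by edgeR (Acp5, Mmp9, Ocstamp, Dcstamp, Oscar, Nfatc1 and Tnfrsf11a), against 21.4% of the genes tested in that fit. With Dmp1KO/Fgf23cKO libraries 1 and 2 left out, or libraries 3 and 4, the count was 8 in both cases, Calcr being the addition, against 20.2% and 20% of genes. DESeq2 called 6 lower, against 18.9%, and limma on the deposited log2 values only Ocstamp, with 2581 of 16430 genes called lower. The call of Ocstamp itself was lost without a count filter (adjusted p 0.0666), without WT library 1, 2, 3 or 4, without Fgf23cKO library 2, without Dmp1KO library 1, 2 or 3, and without Dmp1KO/Fgf23cKO library 2, and its adjusted p lay between 0.00461 and 0.112 over 23 alternatives. Acp5 was called in its place without WT library 2 or 4, and Tnfrsf11a without Dmp1KO/Fgf23cKO library 2. Genes called lower in these fits numbered 1968 of 16601, 1852 of 16611 and 2808 of 16620. Leaving out Fgf23cKO library 1 gave 2 members called lower, against 16% of genes, and leaving out Dmp1KO library 4 gave 3, against 11.5%. Without Dmp1KO/Fgf23cKO library 1, 3 or 4 there were 5, 5 and 4, against 16.2%, 17.6% and 16.2% of genes. Atp6v0d2 and Ctsk were called under none of the 23 alternatives. For all 10 members the sign of the log2 fold change was the same under every one of them.

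**Figure D2:**
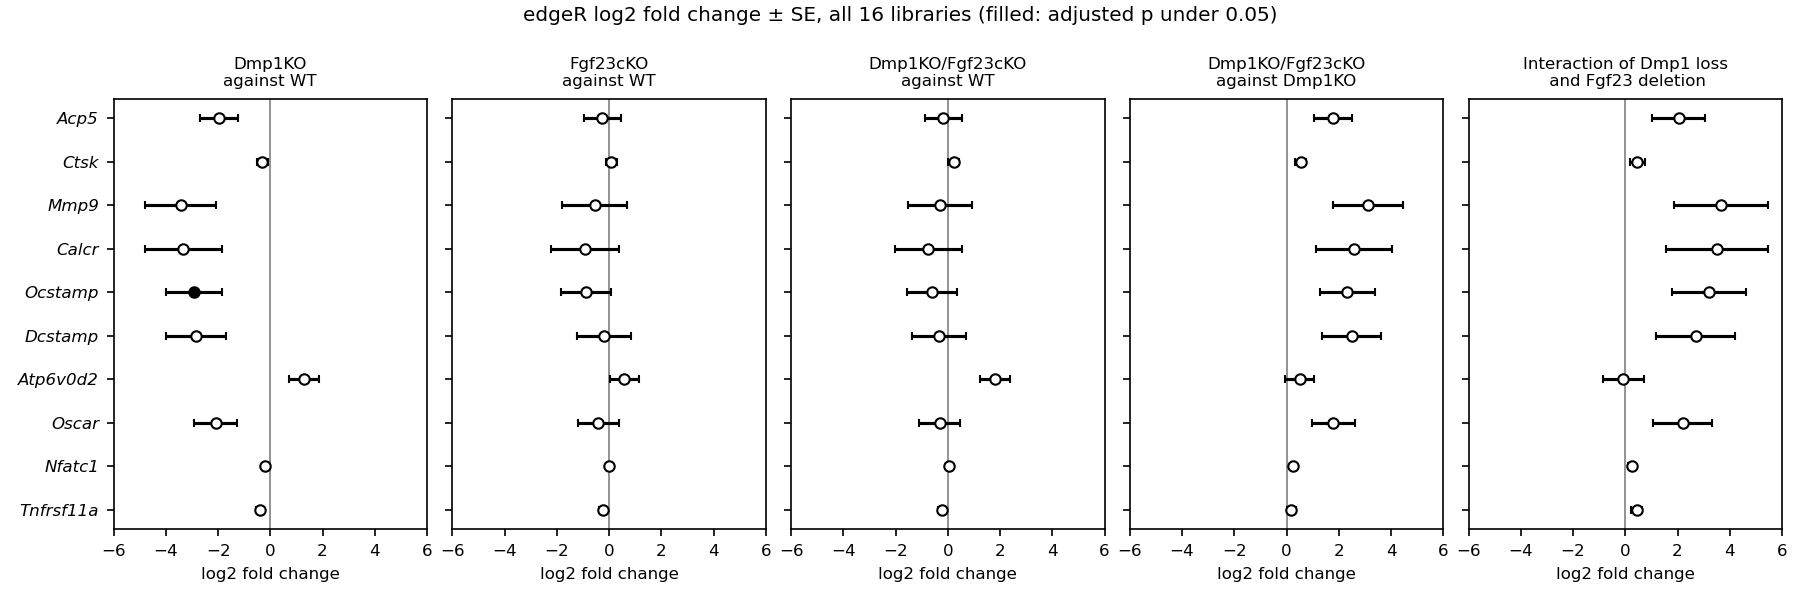
Log2 fold change (edgeR, all 16 libraries) of the 10 marker genes in 5 comparisons, each point with its SE, and filled where the adjusted p was under 0.05. Ocstamp in Dmp1KO against WT, at -2.93, is the only filled point. Atp6v0d2 is the only member to the right of 0 in Dmp1KO against WT.

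Deletion of Fgf23 in cells with intact Dmp1 was examined next, in Fgf23cKO against WT cultures. None of the 10 markers was called by edgeR, and none had an unadjusted p under 0.05. Of the 16430 genes tested, 11.4% were called and 4480 had an unadjusted p under 0.05. DESeq2, with 16.4% of genes called, and limma, with 1752 of the 16430 called, called 0 members as well. The median log2 fold change of the members was -0.25, beside -0.013 over all genes tested. Fgf23cKO library 1 was the high one of its group, as in Mmp9, with 139.1, 65.0, 22.7 and 43.1 CPM in Fgf23cKO libraries 1 to 4, against 25.2 to 185.4 CPM in WT. The 2 groups overlapped throughout, and the log2 fold change was -0.55 ± 1.24 (edgeR adjusted p 0.821).

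The same was seen for the other enzymes. Acp5 was at 108.9, 54.1, 40.5 and 43.8 CPM in Fgf23cKO, against 28.6 to 128.2 CPM in WT, and Ctsk at 242.5, 195.2, 170.0 and 170.9 CPM, against 138.3 to 241.6 CPM. Their log2 fold changes were -0.26 ± 0.70 and 0.08 ± 0.21. Fusion genes likewise overlapped: Dcstamp was at 4.48, 1.80, 0.654 and 1.38 CPM in Fgf23cKO against 0.677 to 4.12 CPM in WT, and Ocstamp at 1.82, 0.932, 0.264 and 0.235 CPM against 0.737 to 2.24 CPM, with Fgf23cKO libraries 3 and 4 below the WT range. Atp6v0d2 was at 86.2, 41.4, 48.5 and 52.4 CPM in Fgf23cKO, of which libraries 1, 3 and 4 were above the WT range of 27.3 to 46.9 CPM. Its log2 fold change of 0.59 ± 0.55 was within the spread between libraries (edgeR adjusted p 0.542). Calcr was at 0.807, 0.567, 0.264 and 0.180 CPM and Oscar at 2.55, 1.40, 1.74 and 1.14 CPM in Fgf23cKO, all inside the WT ranges of 0.0725 to 1.70 CPM and 0.870 to 4.77 CPM. Nfatc1 was at 107.2, 98.97, 120.1 and 107.9 CPM, around the WT range of 106.2 to 111.5 CPM.

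Tnfrsf11a was the one member whose groups did not overlap, with 87.5, 94.5, 88.1 and 97.1 CPM in Fgf23cKO against 97.6 to 114.5 CPM in WT. In 12% of all tested genes the Fgf23cKO libraries lay below the WT libraries in this way, so 1 of 10 is near that share. The log2 fold change of Tnfrsf11a was -0.25 ± 0.16 (edgeR adjusted p 0.331), and it was called with only these 2 genotypes in the fit (adjusted p 0.0248, with 9.22% of genes called lower there) and under no other of the 23 alternatives.

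With both changes together, in Dmp1KO/Fgf23cKO against WT cultures, edgeR called none of the 10 markers, with 11.3% of all tested genes called. Of the members, 1 had an unadjusted p under 0.05, Atp6v0d2, as had 4545 of the 16430 genes tested. DESeq2 also called Atp6v0d2 (10.4% of genes called higher by it), as did edgeR with only these genotypes in the fit (5.59% higher). With limma 0 members were called, and 1656 of the 16430 genes. The fitted values average a high and a low pair of libraries. Mmp9 was at 262.8 and 53.6 CPM in Dmp1KO/Fgf23cKO libraries 1 and 2 and at 0.566 and 2.44 CPM in libraries 3 and 4, against 25.2 to 185.4 CPM in WT. Thus library 1 was above the whole WT range and libraries 3 and 4 were below it, and the log2 fold change of -0.31 ± 1.23 averages values on both sides of WT. Acp5 was at 167.7, 61.8, 14.8 and 18.8 CPM in Dmp1KO/Fgf23cKO, against 28.6 to 128.2 CPM in WT, with the same arrangement.

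For the fusion genes, Dcstamp was at 5.94, 1.32, 0.174 and 0.0511 CPM in Dmp1KO/Fgf23cKO, against 0.677 to 4.12 CPM in WT. Ocstamp was at 2.89, 0.847, 0.0580 and 0.102 CPM, against 0.737 to 2.24 CPM. In both, library 1 was above WT, library 2 within it, and libraries 3 and 4 below it. Oscar followed them, with 4.98, 1.64, 0.174 and 0.460 CPM in Dmp1KO/Fgf23cKO against 0.870 to 4.77 CPM in WT, and so did Calcr in its low pair, with 1.66, 0.336, 0 and 0.0341 CPM against 0.0725 to 1.70 CPM. The count of 0 in library 3 allows up to 3 counts, or 0.0435 CPM. Nfatc1 was at 135.9, 129.8, 86.1 and 99.2 CPM in Dmp1KO/Fgf23cKO, against 106.2 to 111.5 CPM in WT, a pair of libraries on each side of WT. Tnfrsf11a was at 100.7, 128.4, 68.3 and 78.2 CPM in Dmp1KO/Fgf23cKO against 97.6 to 114.5 CPM in WT, with library 2 above WT and libraries 3 and 4 below it. Ctsk did not divide in this way, at 305.4, 156.6, 200.7 and 200.7 CPM in Dmp1KO/Fgf23cKO against 138.3 to 241.6 CPM in WT, with a log2 fold change of 0.23 ± 0.21 (edgeR adjusted p 0.516).

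Atp6v0d2 was divided in the opposite order. It was at 81.4, 52.5, 186.8 and 209.0 CPM in Dmp1KO/Fgf23cKO, against 46.9, 31.9, 46.2 and 27.3 CPM in WT. All 4 Dmp1KO/Fgf23cKO libraries were above all WT libraries, as in 10.9% of all tested genes, and libraries 3 and 4 stood highest. The log2 fold change was 1.80 ± 0.57, 3.48-fold, and just missed the threshold (edgeR adjusted p 0.0538), and Atp6v0d2 was called higher under 8 of 23 alternatives, with the adjusted p between 0.00995 and 0.525. It was called without Dmp1KO library 1, 3 or 4 or Dmp1KO/Fgf23cKO library 1 or 2. Without Dmp1KO/Fgf23cKO libraries 3 and 4 the log2 fold change was 0.82 ± 0.62 (adjusted p 0.525), against 2.37 ± 0.60 (0.00995) without libraries 1 and 2. On dropping Dmp1KO/Fgf23cKO library 2, Tnfrsf11a was called lower as well, with 1068 of 16620 genes called lower.

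Fitted without one pair at a time, the Dmp1KO/Fgf23cKO libraries gave fitted changes from WT of opposite sign for 8 members. Without Dmp1KO/Fgf23cKO libraries 1 and 2, 9 of the 10 markers were called by edgeR, 8 lower and Atp6v0d2 higher, with 34.6% of all genes called, 17.4% lower and 17.2% higher. Mmp9 then had a log2 fold change of -6.08 ± 1.49 (adjusted p 0.00893), Dcstamp of -4.37 ± 1.21 (0.0146), Ocstamp of -4.22 ± 1.11 (0.00989), Atp6v0d2 of 2.37 ± 0.60 (0.00995) and Tnfrsf11a of -0.58 ± 0.12 (0.00184). Only Ctsk was not called, at 0.11 ± 0.22. Without libraries 3 and 4, 1 marker was called, Nfatc1, which was higher by 0.29 ± 0.075 on the log2 scale (adjusted p 0.0451), with 3.12% of genes called higher. The pairs were set with earlier results of these data known and differ in the markers themselves, so these calls describe the libraries kept, 2 in each such fit. Beside the members, the macrophage sum was 11960 and 14430 CPM in libraries 1 and 2 and 7270 and 9174 CPM in libraries 3 and 4, against 10580 to 11780 CPM in WT. Its part in the result was not tested.

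**Figure D3:**
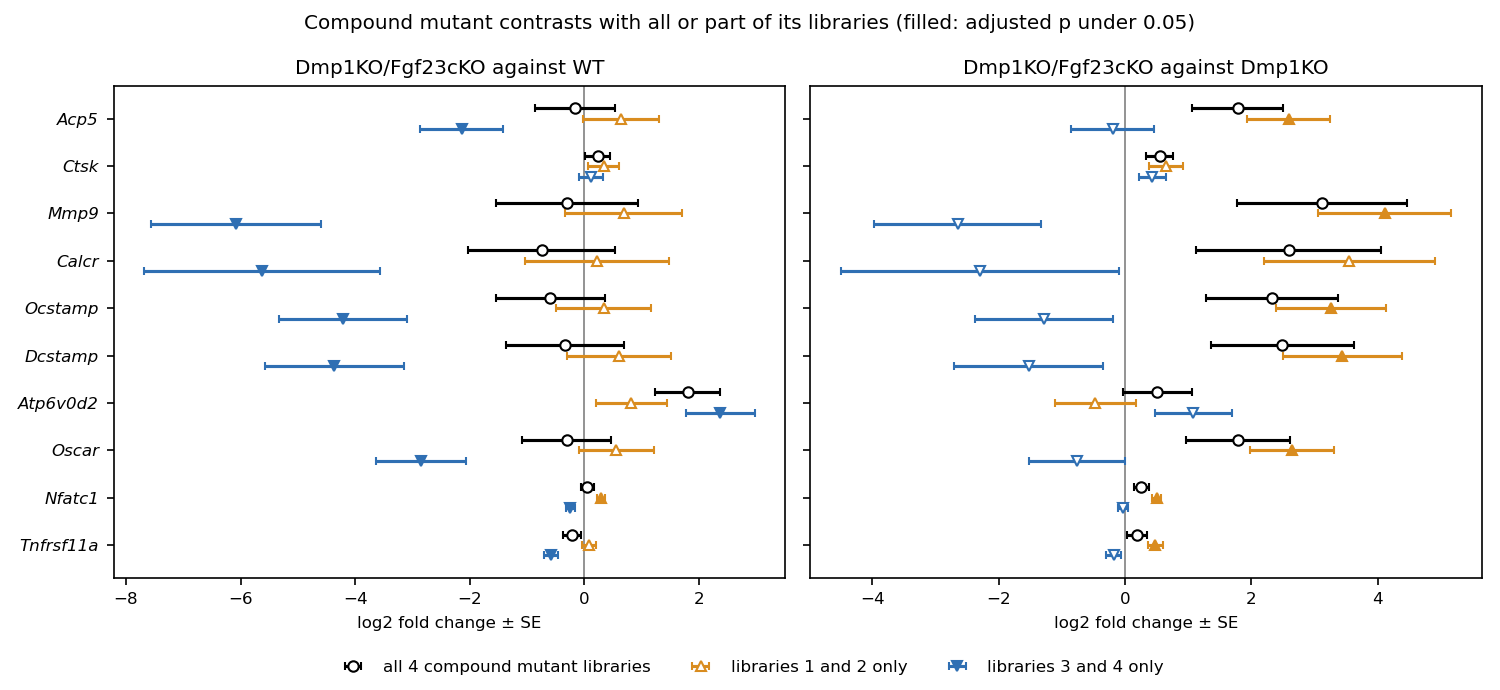
Log2 fold change with SE (edgeR) of the 10 marker genes in Dmp1KO/Fgf23cKO against WT (left) and against Dmp1KO (right), with all 4 Dmp1KO/Fgf23cKO libraries (circles), libraries 1 and 2 only (up triangles) or libraries 3 and 4 only (down triangles). Filled symbols have an adjusted p under 0.05. In the left panel 9 markers are filled for libraries 3 and 4, Mmp9 at -6.08, and 1 for libraries 1 and 2. In the right panel 7 are filled for libraries 1 and 2 and 0 for libraries 3 and 4.

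Whether deleting Fgf23 altered the markers in cells without Dmp1 was asked by setting Dmp1KO/Fgf23cKO against Dmp1KO cultures. The fitted change was above 0 for all 10 members, with a median log2 fold change of 1.78 beside 0.0081 over all genes. That median was 0.86 with limma on the deposited log2 values, 2.62 without Dmp1KO/Fgf23cKO libraries 3 and 4 and -0.48 without libraries 1 and 2. No member was called by edgeR, DESeq2 or limma, and 0.0183% of all genes were called by edgeR and 1.11% by DESeq2. Limma called 2 of the 16430 genes. An unadjusted p under 0.05 was found for 7 members, and for 2264 of the 16430 genes tested. No member had groups that did not overlap, which 1.66% of genes had in the upward direction. Mmp9 had the largest fitted change, 3.12 ± 1.35 on the log2 scale (edgeR adjusted p 0.342), from 262.8, 53.6, 0.566 and 2.44 CPM in Dmp1KO/Fgf23cKO and 3.90, 5.16, 4.39 and 23.2 CPM in Dmp1KO. Libraries 1 and 2 of Dmp1KO/Fgf23cKO were above all Dmp1KO libraries, and libraries 3 and 4 below them all.

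This difference too depended on the pair. Without Dmp1KO/Fgf23cKO libraries 3 and 4, 7 markers were called higher than in Dmp1KO (Acp5, Mmp9, Ocstamp, Dcstamp, Oscar, Nfatc1 and Tnfrsf11a), with 12.9% of genes called higher. Nfatc1 was then higher by 0.50 ± 0.075 on the log2 scale (edgeR adjusted p 0.000341), Oscar by 2.65 ± 0.67 (0.0117) and Acp5 by 2.59 ± 0.66 (0.0138). As above, the pairs were set with earlier results known and differ in these markers, so such calls describe only the libraries kept. Without libraries 1 and 2, 0 markers were called, with 0.142% of genes called, and 8 of the 10 fitted changes had the opposite sign, Mmp9 at -2.65 ± 1.32 and Acp5 at -0.19 ± 0.66. Ctsk kept one sign in all of these fits, at 0.55 ± 0.21 with all libraries (edgeR adjusted p 0.326), from 305.4, 156.6, 200.7 and 200.7 CPM in Dmp1KO/Fgf23cKO and 126.7, 143.6, 148.9 and 172.3 CPM in Dmp1KO. Atp6v0d2 differed by 0.51 ± 0.55 (edgeR adjusted p 0.682).

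The interaction, that is the change on Fgf23 deletion in Dmp1-/- cells minus that in Dmp1+/+ cells, tests whether these effects differ. It was above 0 for 9 members and called for none by edgeR, DESeq2 or limma, with 7.62% of all genes called by edgeR and 12.8% by DESeq2. Limma called 895 of the 16430 genes. An unadjusted p under 0.05 was found for 1 member, Ocstamp (log2 interaction 3.20 ± 1.42, edgeR adjusted p 0.179), and for 4084 of the 16430 genes tested. Without Dmp1KO/Fgf23cKO libraries 3 and 4 it was called for the same 7 markers as the comparison with Dmp1KO, with 12.9% of genes called in that direction, and without libraries 1 and 2 for 0, with 6.18% of genes called. The pairs differ in the markers themselves, so calls made without a pair describe only the libraries kept. The comparisons share libraries and so are not independent of each other.

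The profiles of the members across the 16 libraries were set side by side by the root mean square (RMS) difference of their gene-centred log2 CPM, a description over libraries that share genotypes. Nfatc1 and Tnfrsf11a were closest, at 0.20, followed by Ctsk and Nfatc1 at 0.32, which are the members that varied least. Among those that varied widely, Acp5 and Oscar were closest, at 0.50, and the largest difference was that of Mmp9 and Atp6v0d2, at 3.04. Acp5 lay nearest to the mean profile of the 10 genes, at 0.25, followed by Oscar at 0.44. The next was Ctsk at 0.83, and the farthest were Mmp9 at 1.48 and Atp6v0d2 at 1.61. All members but Acp5 and Oscar thus lay farther from that mean profile than the outside genes named next. The 8 genes outside the list most like that mean profile were Fbln1 (RMS difference 0.44), Mt3, Mst1r, Dpep1, Igfbp4, Cxcl12, Slc16a9 and Itgb4 (0.51). Fbln1, a matrix glycoprotein, was at 27.0, 10.7, 2.67 and 3.25 CPM in Dmp1KO/Fgf23cKO, at 3.95, 3.96, 5.23 and 4.75 CPM in Dmp1KO, at 12.3, 12.9, 10.0 and 8.33 CPM in Fgf23cKO and at 17.3, 15.7, 18.4 and 13.2 CPM in WT. Mst1r, the receptor of macrophage-stimulating protein, is also in the wider list of osteoclast genes.

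Because Atp6v0d2 lay farthest from the mean profile, the genes most like it were looked up after its values were seen. They were Anpep (RMS difference 0.34), Il7r, Pirb, Mcoln3, Itgax, Rgs1, Mmp12 and Stac2 (0.47). Mmp12, the macrophage metalloelastase, was at 94.5, 133.2, 427.0 and 482.0 CPM in Dmp1KO/Fgf23cKO, at 435.3, 106.8, 66.7 and 78.5 CPM in Dmp1KO, at 209.7, 141.2, 144.4 and 139.8 CPM in Fgf23cKO and at 102.8, 96.8, 119.1 and 112.4 CPM in WT. Its 3 highest libraries, Dmp1KO library 1 and Dmp1KO/Fgf23cKO libraries 3 and 4, were also the 3 highest for Atp6v0d2, at 229.7, 186.8 and 209.0 CPM. Sharing high libraries follows from picking these genes by likeness, and which cells made their transcripts was not tested. Itgax, the integrin subunit CD11c of dendritic cells and macrophages, had 90.5 CPM in Dmp1KO library 1 and 62.0 and 72.4 CPM in Dmp1KO/Fgf23cKO libraries 3 and 4, against 13.2 to 19.4 CPM in WT.

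**Figure D4:**
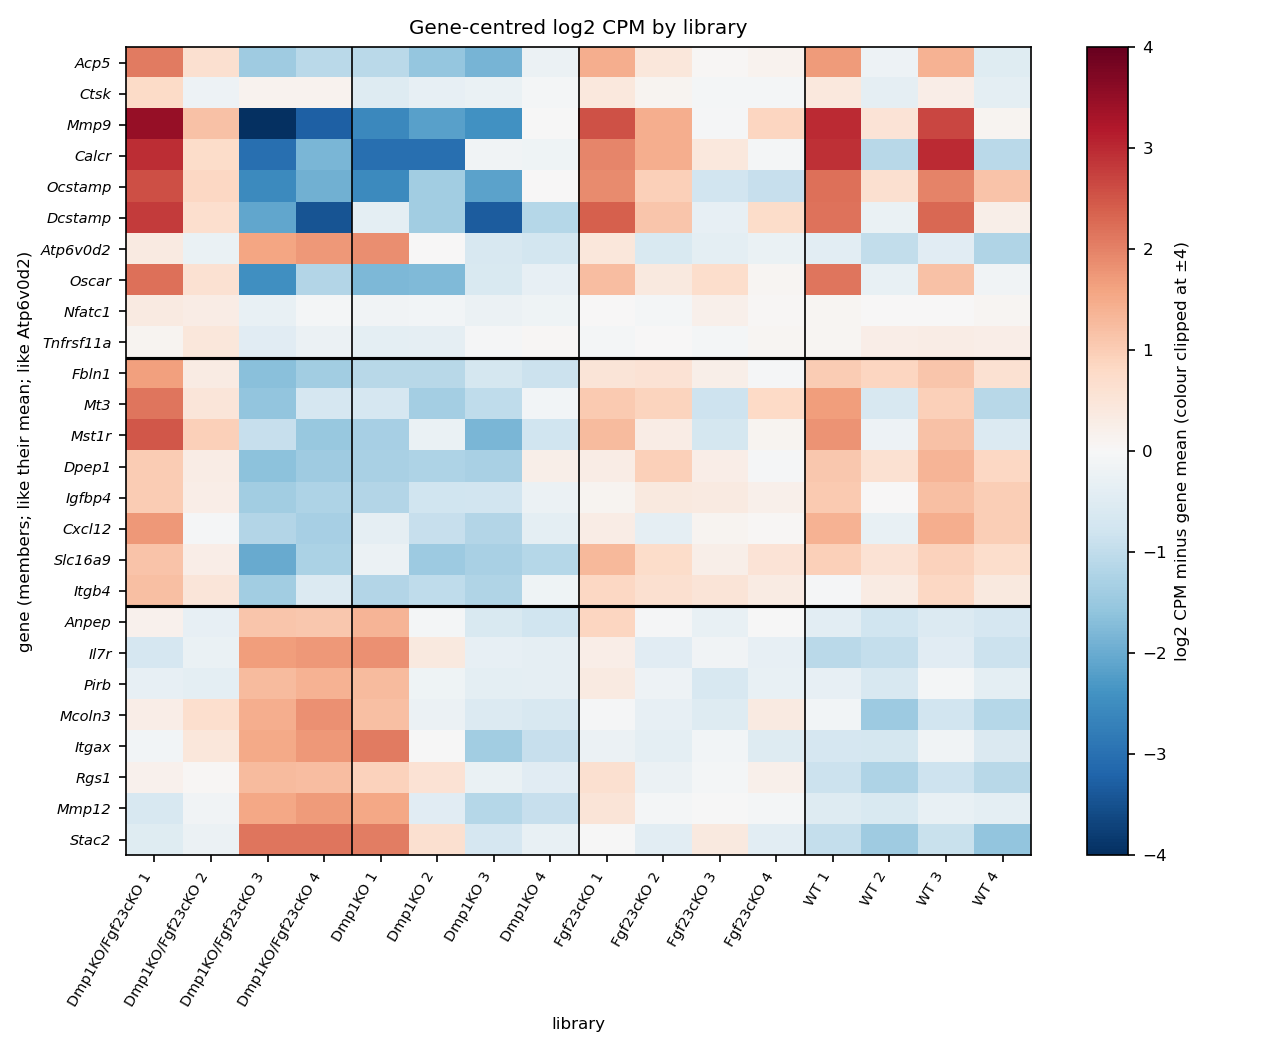
Gene-centred log2 CPM (colour, clipped at ±4) of the 10 marker genes (top block), the 8 genes most like their mean (middle) and the 8 most like Atp6v0d2 (bottom), with libraries of Dmp1KO/Fgf23cKO, Dmp1KO, Fgf23cKO and WT from left to right. Dmp1KO/Fgf23cKO libraries 1 and 2 are on the high side and 3 and 4 on the low side for 8 markers, and the bottom block has its highest values in Dmp1KO library 1 and Dmp1KO/Fgf23cKO libraries 3 and 4.

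Other genes of osteoclast formation and function were counted over a whole list of 24. Of these wider osteoclast genes, 3 were called lower in Dmp1KO against WT and 0 higher, with a median log2 fold change of -0.24, while 15.8% of all tested genes were called lower. They were Ostm1, a partner of the lysosomal chloride transporter, by 0.35 ± 0.080 on the log2 scale (edgeR adjusted p 0.00441), Prdm1, the transcriptional repressor BLIMP1, by 0.59 ± 0.19 (0.0265), and the kinase gene Src by 0.27 ± 0.086 (0.0278). Ostm1 was at 52.3, 46.6, 47.8 and 51.4 CPM in Dmp1KO, against 58.6, 71.7, 66.3 and 56.9 CPM in WT, with no overlap. With Dmp1KO/Fgf23cKO libraries 1 and 2 left out 9 of the 24 were called lower, against 20.2% of genes, and with libraries 3 and 4 left out 6, against 20%, with 0 higher in both. In Fgf23cKO against WT and in Dmp1KO/Fgf23cKO against WT or Dmp1KO, 0 of the 24 were called, with 11.4%, 11.3% and 0.0183% of all genes called. An unadjusted p under 0.05 was found for 4, 2 and 8 of them, and for 4480, 4545 and 2264 of the 16430 genes tested. DESeq2 called 1, 0 and 1 of the 24, and 2687, 2697 and 182 of all genes. With limma 0 of the 24 were called in each, and 1752, 1656 and 2 of all genes. Without Dmp1KO/Fgf23cKO libraries 3 and 4, 10 of the 24 were called higher than in Dmp1KO, with 12.9% of genes called higher, and without libraries 1 and 2 there were 0, with 0.142% of genes called. Calls made without a pair again describe only the libraries kept. The interaction was called for 2 of the 24, Ostm1 and Prdm1, and for 7.62% of all genes.

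Some macrophage genes were also lower in Dmp1KO. Of 18 macrophage genes, 5 were called lower and 0 higher in Dmp1KO against WT, with a median log2 fold change of -0.27 and 15.8% of all tested genes called lower. They were Vsig4, Marco, Csf1r, Adgre1 and Mrc1, and 10 were called lower with either pair of Dmp1KO/Fgf23cKO libraries left out, against 20.2% and 20% of genes. Csf1r, the receptor of M-CSF that osteoclast precursors share with macrophages, was at 691.7, 712.5, 773.1 and 753.0 CPM in Dmp1KO, against 1152, 1102, 1162 and 1195 CPM in WT, with no overlap (log2 fold change -0.65 ± 0.16, edgeR adjusted p 0.00683). The 18 genes summed to between 8512 and 12490 CPM in Dmp1KO, against 10580 to 11780 CPM in WT, and none was at 0. Of that sum, Lyz2 alone gave 3907 to 7552 CPM in Dmp1KO and 4787 to 5815 CPM in WT. Set against that sum, Mmp9 was at 0.312, 0.606, 0.499 and 2.73 CPM per 1000 CPM of macrophage genes in Dmp1KO, against 17.52, 2.94, 12.8 and 2.22 in WT, and Acp5 at 1.499, 1.60, 1.23 and 3.91, against 12.1, 2.89, 8.90 and 2.52. In both, Dmp1KO library 4 was above a WT library on this scale and the other 3 Dmp1KO libraries were below all of WT. Besides Mmp9 and Acp5, only Ctsk and Atp6v0d2 were set on this scale, and the other markers were not. Ctsk and Atp6v0d2 were not lower on it beyond their spread, and neither was called in this comparison before scaling. Ctsk had a mean of 16.05 ± 4.24 (SD) in Dmp1KO and 16.32 ± 5.22 in WT, and Atp6v0d2 of 8.74 ± 6.58 and 3.37 ± 0.97. The osteoblast list was higher in the same comparison, with 10 of 14 genes called higher, against 18% of all tested genes, and sums of 130200 to 141200 CPM in Dmp1KO, against 51490 to 83720 CPM in WT. Of these sums, Col1a1 alone gave 74500 to 84680 CPM in Dmp1KO and 24880 to 43690 CPM in WT. The part of either list in the marker values was not tested.

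The signals that drive or block osteoclast formation were also measured. Tnfsf11, which encodes RANKL, was at 0.0580, 0.190, 0.429 and 0.220 CPM in Dmp1KO, against 1.04, 0.677, 1.11 and 0.993 CPM in WT. The groups did not overlap, and the log2 fold change was -2.08 ± 0.79 (edgeR adjusted p 0.0539). Tnfrsf11b, the RANKL decoy receptor osteoprotegerin, was at 16.6, 23.96, 43.8 and 54.6 CPM in Dmp1KO and 30.3, 34.3, 27.2 and 28.0 CPM in WT, a difference within the spread (0.21 ± 0.44, adjusted p 0.732). Csf1, which encodes M-CSF, was at 397.6, 406.0, 479.5 and 606.0 CPM in Dmp1KO, against 528.6, 621.4, 745.4 and 701.8 CPM in WT (-0.46 ± 0.26, adjusted p 0.176). Of the 6 signals listed, the 3 others, Tnf, Il1b and Il34, were called lower in Dmp1KO, by 1.06 ± 0.31, 2.09 ± 0.67 and 1.33 ± 0.43 on the log2 scale (edgeR adjusted p of 0.0180, 0.0268 and 0.0297), with 15.8% of all tested genes called lower. Il1b was low in both groups, at 0.0827 to 0.434 CPM in Dmp1KO and 0.725 to 1.44 CPM in WT. The Dmp1KO values of Il1b and Tnfsf11 therefore rest on few reads. With either pair of Dmp1KO/Fgf23cKO libraries left out, 5 of the 6 signals were called lower, against 20.2% and 20% of genes. In Fgf23cKO, Tnfsf11 was at 2.09, 1.23, 1.31 and 3.49 CPM, above all WT libraries and not called (adjusted p 0.367). In Dmp1KO/Fgf23cKO it was at 2.30 and 0.847 CPM in libraries 1 and 2 and at 0.377 and 0.0341 CPM in libraries 3 and 4, divided as most of the markers were.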

How the data were processed

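Bulk RNA was sequenced in 16 libraries as 50 bp paired reads (TruSeq Total RNA, NovaSeq). The authors mapped reads to mm10 in StrandNGS and deposited expected counts per gene, and log2 values scaled by DESeq and centred on each gene's median. The version, annotation and strand setting were not given in the sources used here. Further deposited tables hold the authors' fold changes and p-values and were not used. Expected counts, of which 33.4% had fractions, were rounded, filtered by filterByExpr (minimum count 10, minimum total 15) and fitted for all 16 libraries with edgeR 4.0.16 (R 4.3.3), TMM scaling and robust quasi-likelihood, with Benjamini-Hochberg adjustment over 16430 genes and a threshold of 0.05. The SE is the log2 fold change divided by the square root of F. Log2 CPM used a prior count of 2. The script was tested on simulated data. Alternatives were DESeq2 1.42.0, limma 3.58.1 on the deposited log2 values, RLE scaling, no filter, only the genotypes compared, and leaving out libraries or pairs. All members are named, with at most 4 genes of each other list by adjusted p. Mrc1 was added after its values were seen, and Lyz2, Col1a1 and Spp1 are also named outside that rule. Tnfsf11, Tnfrsf11b and Csf1 are named too, with the 8 genes of at least 1 mean CPM nearest the mean profile. Members and lists were chosen with earlier results of these data known. Symbols stored as dates were repaired for 26 genes, and 44528 genes were matched to RefSeq by Entrez ID.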

Additional observations from a re-analysis of the deposited data

Results flagged for a closer look

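A single library stood apart from the other 3 of its genotype in 2 of the 40 member and genotype combinations examined, by Dixon's criterion, in which the gap to the nearest library is divided by the whole range. Chance flags about 1 in 20 such groups. Mmp9 was at 23.2 CPM in Dmp1KO library 4 and between 3.90 and 5.16 CPM in the other Dmp1KO libraries, a gap of 0.935 of the range. Atp6v0d2 was at 229.7 CPM in Dmp1KO library 1 and between 37.96 and 63.7 CPM in the other Dmp1KO libraries, a gap of 0.866 of the range.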

How the results depend on the processing

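Counts of members called moved by more than 1.5 times in several settings. For Dmp1KO against WT the count of 1 became 6 with DESeq2, 0 without a count filter, 7 with only these genotypes, 8 without Dmp1KO/Fgf23cKO libraries 1 and 2 and 8 without libraries 3 and 4, and lay between 0 and 5 on leaving out 1 library. For Fgf23cKO against WT the count of 0 became 1 with only these genotypes. For Dmp1KO/Fgf23cKO against WT the count of 0 became 1 with DESeq2, 1 with only these genotypes, 9 without libraries 1 and 2 and 1 without libraries 3 and 4, and lay between 0 and 2 on leaving out 1 library. Against Dmp1KO and for the interaction the count of 0 became 7 without libraries 3 and 4. Without libraries 3 and 4, log2 fold changes of the opposite sign were Acp5 0.64, Mmp9 0.68, Calcr 0.22, Ocstamp 0.33, Dcstamp 0.60, Oscar 0.56 and Tnfrsf11a 0.078 against WT, and Atp6v0d2 -0.47 against Dmp1KO. Without libraries 1 and 2 they were Nfatc1 -0.25 against WT; Acp5 -0.19, Mmp9 -2.65, Calcr -2.29, Ocstamp -1.29, Dcstamp -1.53, Oscar -0.76, Nfatc1 -0.032 and Tnfrsf11a -0.18 against Dmp1KO; and, for the interaction, Mmp9 -2.10, Calcr -1.37, Ocstamp -0.42, Dcstamp -1.32, Oscar -0.35, Nfatc1 -0.022 and Atp6v0d2 0.50. With limma, Calcr was 0.14 in Fgf23cKO against WT and the Atp6v0d2 interaction 0.15. On leaving out 1 library, the log2 fold change in Fgf23cKO against WT lay between -0.68 and 0.15 for Acp5, -0.0425 and 0.24 for Ctsk, -0.91 and 0.19 for Dcstamp, -0.67 and 0.26 for Oscar and -0.059 and 0.041 for Nfatc1. In Dmp1KO/Fgf23cKO against WT it lay between -1.21 and 0.24 for Acp5, -2.38 and 0.19 for Mmp9, -2.18 and 0.052 for Dcstamp, -1.56 and 0.35 for Oscar and -0.054 and 0.16 for Nfatc1. Against Dmp1KO it lay between -0.00065 and 0.32 for Tnfrsf11a, and the Atp6v0d2 interaction lay between -0.39 and 0.89. The cause of these moves was not tested. No sign changed in Dmp1KO against WT. There the median log2 fold change of the members was -2.02 with all libraries. It was also -2.02 without Dmp1KO/Fgf23cKO libraries 1 and 2 and without libraries 3 and 4, although the count of calls moved.

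No paired analysis was possible because the replicate numbers follow accession order and pair no libraries. Calcr, Ocstamp, Dcstamp and Oscar had libraries with as few as 0, 4, 3 and 12 counts.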
